A study of Mus musculus with 24 samples.

Results

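Axin2, Nkd1, Notum, Sp5, Lef1, Tcf7, Tcf7l2, Ctnnb1, Apc and Apcdd1 are 10 genes of the canonical Wnt pathway that were taken by symbol from a deposited table of 43280 gene symbols. All 10 had a row in it. They hold feedback inhibitors that the pathway itself switches on, the transcription factors that carry the signal, and the core of the machinery that passes it on. RNA was sequenced from 4 cell populations sorted from small-intestinal crypts of 6 male Lgr5-EGFP mice on the C57BL/6 strain, littermates whose Lgr5 reporter makes stem cells fluoresce. The PBS group of 3 mice received vehicle and the NRG1 group of 3 received 7.5 µg of neuregulin 1, a growth factor of the EGF family, every 12 h for 5 days by intraperitoneal injection, with tissue taken on day 6. In both groups the age was 15 weeks for replicates 1 and 2 and 11 weeks for replicate 3. Every group carried the reporter, so none was a strain without it. The gates were Lgr5high-CD24low (named crypt base columnar stem cells), Lgr5med-CD24low (immediate progenitors), Lgr5low-CD24low (subsequent progenitors) and Lgr5neg-CD24neg (differentiated cells), each depleted of CD31- and CD45-positive cells. Each mouse gave 1 library per gate, or 24 libraries in 8 groups of 3.

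Wnt ligands bind Frizzled and LRP receptors and stop a destruction complex, built on the scaffold proteins Apc and Axin, from marking beta-catenin for breakdown. Beta-catenin, encoded by Ctnnb1, then joins TCF/LEF factors on DNA and switches on target genes. Several targets damp the signal in turn: Axin2 rebuilds the destruction complex, Nkd1 acts on Dishevelled, Notum removes a lipid from Wnt ligands outside the cell, and Apcdd1 acts at the cell surface. In the small intestine this signal is strongest at the crypt base, where it maintains the stem cells.

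The stretches upstream of the annotated start sites are shown for Axin2, whose level the NRG1 results turn on, and for Sp5, a zinc-finger transcription factor that is itself a Wnt target. Both are the 250 bases before the start on the plus strand, from RefSeq on GRCm38.p6: chr11:108920099-108920348 for Axin2 and chr2:70474673-70474922 for Sp5. Capitals mark matches to the TCF/LEF core motif, searched on both strands in the spellings CTTTGAA, then CTTTGAT, then CTTTGTA, and lastly CTTTGTT.
Axin2: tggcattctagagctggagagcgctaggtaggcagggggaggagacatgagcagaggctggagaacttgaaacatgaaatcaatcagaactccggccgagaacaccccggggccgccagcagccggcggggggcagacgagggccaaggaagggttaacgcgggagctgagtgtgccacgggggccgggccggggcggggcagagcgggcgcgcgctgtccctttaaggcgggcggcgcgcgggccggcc
Sp5: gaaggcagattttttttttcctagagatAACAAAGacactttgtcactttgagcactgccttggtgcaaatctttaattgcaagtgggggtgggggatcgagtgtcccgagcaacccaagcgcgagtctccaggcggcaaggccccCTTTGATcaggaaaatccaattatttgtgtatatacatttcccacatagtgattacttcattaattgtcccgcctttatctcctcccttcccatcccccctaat
The Sp5 stretch held 2 matches that did not overlap, AACAAAG (minus strand) and downstream of it CTTTGAT, and the Axin2 stretch held none of these letters. Any of the 4 motifs stood in 14.8% of 32851 such upstream windows, so a match is a description of the letters and not a binding site. The upstream windows used here covered 7 of the 10 genes, not Notum, Apcdd1 and Apc.

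Depth and the sorted labels were checked before the results. Library totals lay between 11176264 and 23343499 counts, of which mitochondrial ribosomal RNA took 37.6% to 62.4%, and 3 counts, the limit that a count of 0 allows, were worth 0.113 to 0.239 CPM (counts per 1000000 after TMM scaling over all 24 libraries; counting error only). Mitochondrial ribosomal RNA took 54.08% to 54.35% in Lgr5neg PBS, 49.5% to 62.4% in Lgr5neg NRG1 and 37.6% to 47.1% in all other libraries. Summed stem cell markers (8 genes) ran from 3582 to 4999 CPM in Lgr5high and from 40.2 to 63.2 CPM in Lgr5neg libraries, and 10 enterocyte markers from 845 to 1617 CPM and from 31005 to 72239 CPM. Summed T-cell markers (15 genes) were at 0.520 to 2.63 CPM in the 18 libraries of the Lgr5high, Lgr5med and Lgr5low gates, and at 56.4 to 436 CPM in Lgr5neg libraries, although that gate also removed CD45-positive cells. In such sorted bulk samples, fewer cells of a type and less RNA per cell cannot be told apart.

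Per kilobase of exon, over all 24 libraries, Ctnnb1 had the highest mean level of the 10 genes at 60.5 CPM per kb, followed by Axin2 at 21.7, Tcf7l2 at 11.1 and Apc at 8.12 CPM per kb. Tcf7 was at 4.05 and Sp5 at 1.85 CPM per kb, and Nkd1, Lef1, Apcdd1 and Notum were below 0.25 CPM per kb each (0.246, 0.0697, 0.0504 and 0.0108). The order turned by gate. In Lgr5low cells Axin2 was at 9.74 (PBS mice) and 11.9 CPM per kb (NRG1 mice), below Tcf7l2 at 11.6 and 12.0. In Lgr5neg cells of PBS mice Axin2 was at 7.47 CPM per kb, below Tcf7l2 at 13.9 and level with Apc at 7.49. In Lgr5neg cells of NRG1 mice it was at 2.84, below both Tcf7l2 at 12.5 and Apc at 6.70 CPM per kb. Axin2 had 179 to 6401 counts per library, so its values are the best measured of the feedback inhibitors. Nkd1 (597 counts in all), Apcdd1 (340) and Lef1 (309) were sparse, and Notum had 12 counts over the 24 libraries.

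**Figure D1:**
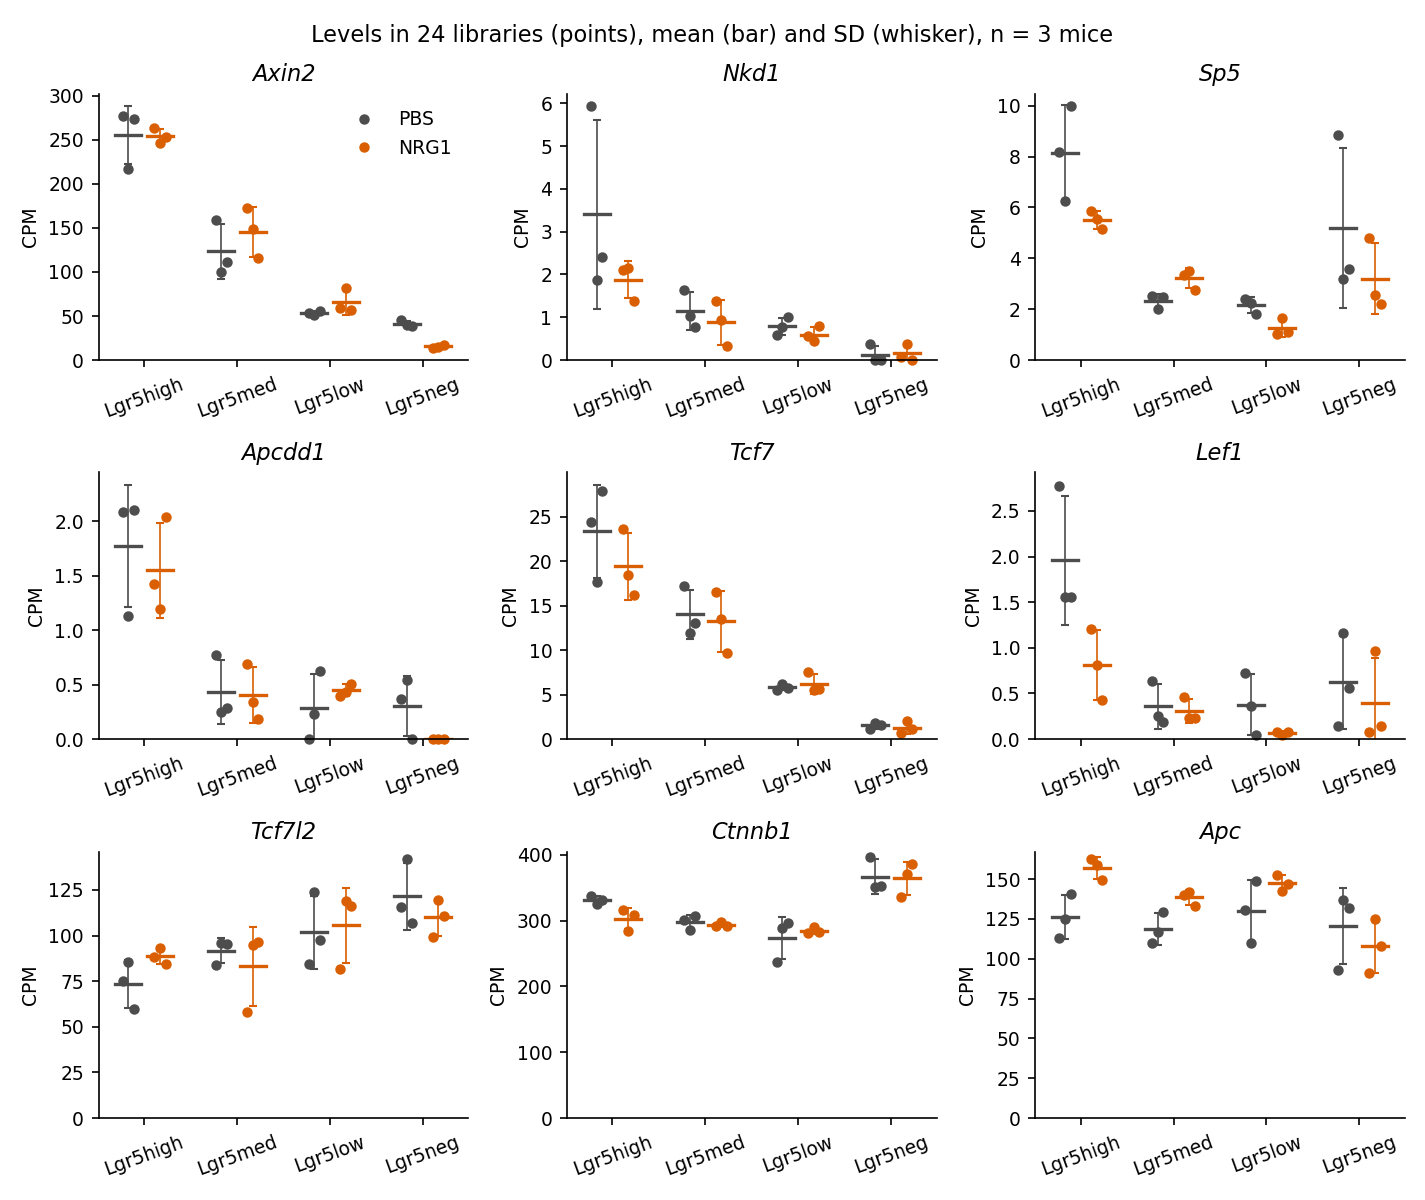
Level in CPM (vertical axes, linear from 0) of 9 of the 10 genes in each library, by sorted population (horizontal axis) and treatment (grey PBS, orange NRG1). Points are mice, bars the mean and whiskers the SD of 3. Axin2 and Tcf7 step down from Lgr5high to Lgr5neg cells, and Sp5 is highest in Lgr5high cells on average with replicate 1 high in Lgr5neg cells. Ctnnb1 and Apc vary less, with mean Ctnnb1 highest in Lgr5neg cells and Apc of NRG1 mice lowest there.

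Genes were called at an adjusted p under 0.05 in edgeR's quasi-likelihood test with Benjamini-Hochberg adjustment over all genes tested, and the shares of all tested genes called are given beside the counts. Along the gates of PBS mice, 4 of 9 tested members were higher and none lower on going from Lgr5med to Lgr5high cells (background 2.44% of genes higher, 6.72% lower, 9.17% in either direction). From Lgr5low to Lgr5med cells 2 of 9 were higher and none lower (2.0%, 5.59% and 7.59%). Lgr5low against Lgr5neg cells gave 2 higher and 2 lower (30.6%, 25.3% and 55.8%), and Lgr5high against Lgr5neg cells 4 higher and 1 lower (35.4%, 32.0% and 67.4%). With most genes called in the last pair, those counts do not stand above the background. In NRG1 mice Lgr5high against Lgr5med cells gave 1 higher and none lower of 9 (0.594%, 2.52% and 3.11%), and Lgr5med against Lgr5low cells 3 higher and none lower (0.923%, 3.8% and 4.72%). Lgr5low against Lgr5neg cells gave 4 higher and 3 lower (30.4%, 26.6% and 57.0%), and Lgr5high against Lgr5neg cells 5 higher and 2 lower (33.5%, 32.0% and 65.5%).

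Axin2 encodes the scaffold of the destruction complex that Wnt signalling induces (chromosome 11, 108920349 to 108950783, plus strand, GRCm38). In PBS mice it stood at 277, 217 and 273 CPM in Lgr5high cells of replicates 1, 2 and 3, at 159, 99.8 and 112 CPM in Lgr5med cells, at 53.7, 51.2 and 56.1 CPM in Lgr5low cells and at 45.3, 39.4 and 38.7 CPM in Lgr5neg cells. The 4 gates did not overlap, and every mouse showed the same order. Lgr5high exceeded Lgr5med cells by a log2 difference of 1.05 (SE 0.160, adjusted p = 0.000436, edgeR; higher in 3 of 3 mice), and in the 15-week-old mice alone that call was lost (0.92, adjusted p = 0.0763). The step from Lgr5low to Lgr5neg cells was small and did not pass (log2 difference 0.30, 95% interval -0.04 to 0.64, adjusted p = 0.122, and 0.0451 without the filter on low counts), although it was higher in 3 of 3 mice, with within-mouse ratios of 1.18, 1.30 and 1.45 (adjusted p = 0.0593 with the mouse as a replicate block).

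In NRG1 mice the same order ended in a much deeper step. Axin2 stood at 263, 246 and 254 CPM in Lgr5high, 173, 149 and 116 CPM in Lgr5med, 58.7, 82.2 and 56.4 CPM in Lgr5low and 14.3, 15.0 and 17.6 CPM in Lgr5neg cells. Lgr5low exceeded Lgr5neg cells by a log2 difference of 2.02 (SE 0.172, adjusted p = 3.84e-08), and Lgr5med exceeded Lgr5low cells by 1.12 (SE 0.163, adjusted p = 0.00130). Within single mice the Lgr5low to Lgr5neg ratio was 3.20 to 5.48 in NRG1 mice and 1.18 to 1.45 in PBS mice, and the Lgr5high to Lgr5neg ratio was 14.4 to 18.4 against 5.52 to 7.06. Neither pair of ranges overlapped. Summed stem cell markers of Lgr5low cells were at 602 to 643 CPM in PBS and 955 to 1446 CPM in NRG1 mice, and their part in these ratios was not tested. The Lgr5high to Lgr5med step of NRG1 mice (log2 difference 0.78, adjusted p = 0.0127) lost its call in the 15-week-old mice (adjusted p = 0.180), without Lgr5high replicate 1 (0.0719) or 3 (0.0510), and without Lgr5med replicate 2 (0.0515) or 3 (0.0797).

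NRG1 against PBS moved Axin2 in 1 gate. Of 6 members tested in Lgr5neg cells, 1 was called, Axin2, and it was lower (background 0.151% of 11908 genes higher, 0.176% lower, 0.328% in either direction). It was at 41.1 ± 3.65 CPM in PBS and 15.6 ± 1.75 CPM in NRG1 mice (SD, n = 3), and the groups did not overlap. The log2 difference was -1.40 (SE 0.164, 95% interval -1.75 to -1.05, adjusted p = 0.00988), a 2.64-fold lower level. With the replicate number as a block the adjusted p was 2.94e-07, and that fit called 839 genes where the fit without it called 39. The call was lost without Lgr5neg PBS replicate 1 (log2 difference -1.34, adjusted p = 0.0820) or replicate 3 (-1.45, 0.0595) and in the 15-week-old mice alone (-1.53, 0.392). The log2 difference of CPM plus 0.5 was -1.50 over the 15-week-old mice and -1.12 in the single pair of 11-week-old mice.

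Markers of other cells in the Lgr5neg libraries are given beside this result. Of all 11908 genes tested in this gate 0.328% were called, so 0 called in a list this short does not show that its markers were unchanged. Summed goblet markers (8 genes) were at 4737 to 6619 CPM in PBS and 1206 to 3722 CPM in NRG1 libraries, a range that did not overlap, with a median log2 difference of -1.15 and 0 of 8 tested genes called. Enterocyte markers ran from 42656 to 72239 and from 31005 to 47128 CPM (0 of 10 called), and enteroendocrine markers (9 genes, Pax4 at 0 in both) from 58.5 to 199 and from 26.4 to 70.3 CPM (0 of 5 tested called). Stem cell markers were alike in range, at 40.2 to 60.1 and 44.7 to 63.2 CPM. Paneth markers ran from 297 to 667 and from 223 to 669 CPM. T-cell markers ran from 91.4 to 193 CPM (Cd2 at 0) and from 56.4 to 436 CPM (Cd2 and Cd8b1 at 0), with 0 of 10 tested called. Their part in the Axin2 difference was not tested. An antisense gene, Gm11670, overlaps Axin2 exons and had 783 counts in all against 63578 for Axin2. In Lgr5neg cells it was at 0.730 to 1.16 CPM in PBS and 0.160 to 0.643 CPM in NRG1 mice, and since the strand setting of the counting was not given, reads of the pair cannot be told apart.

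The NRG1 difference of Axin2 did not pass in the other gates. Same-numbered pairs were all higher with NRG1 in Lgr5med cells, where the groups overlapped, and in Lgr5low cells, where they did not. The log2 difference was 0.01 (95% interval -0.25 to 0.27) in Lgr5high, 0.26 (-0.17 to 0.69) in Lgr5med and 0.33 (-0.00349 to 0.66) in Lgr5low cells, with adjusted p of 0.969, 0.448 and 0.375. Tested as an interaction over all 24 libraries, the NRG1 response of Lgr5high minus that of Lgr5neg cells was 1.41 (SE 0.241, adjusted p = 0.0221), and Axin2 was the only member called there (1 of 9, higher; background 0.0133% of 15045 genes higher, 0.0399% lower, 0.0532% in either direction). That call was lost without Lgr5high NRG1 replicate 1 (adjusted p = 0.0669), Lgr5high PBS replicate 2 (0.0629), Lgr5neg NRG1 replicate 2 (0.0516) or Lgr5neg PBS replicate 1 (0.0559), and in the 15-week-old mice (0.0990). A further pair of interactions was chosen after seeing these data. They gave 1.65 for Lgr5med minus Lgr5neg cells (SE 0.242, adjusted p = 0.00165; 1 of 9 members called; background 0.0199%, 0.0266% and 0.0465%) and 1.73 for Lgr5low minus Lgr5neg cells (SE 0.243, adjusted p = 0.000771; 1 of 9; background 0.0133%, 0.00665% and 0.0199%), and both kept their call in all alternatives run. All 3 interactions share the Lgr5neg libraries.

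**Figure D2:**
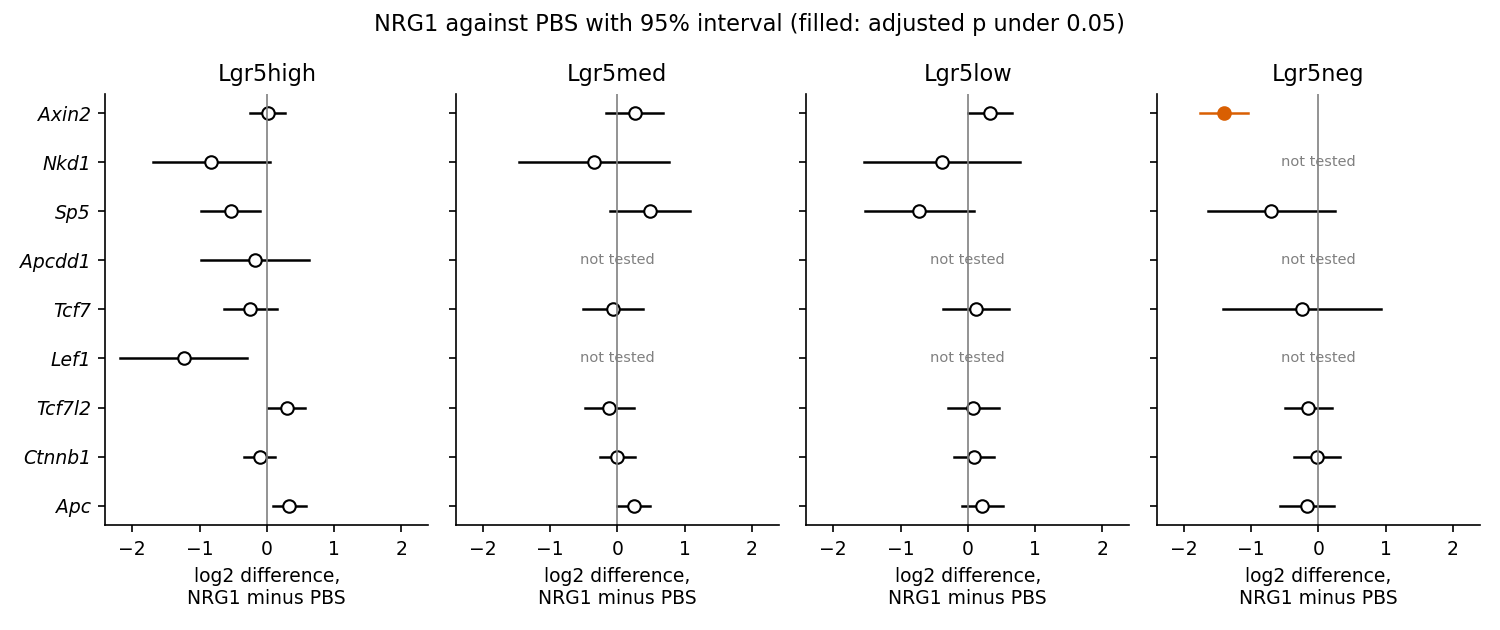
Log2 difference of NRG1 minus PBS (horizontal axes) with its 95% interval for each gene in each sorted population; filled points passed the adjusted p of 0.05, and genes too low to be tested are marked. Axin2 in Lgr5neg cells, at -1.40, is the 1 filled point.

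In the 3 reporter-positive gates no member passed with NRG1. The counts called were 0 of 9 in Lgr5high cells (background 3.18% higher, 4.15% lower, 7.33% in either direction; 4 at an unadjusted p under 0.05, 0 with DESeq2), 0 of 7 in Lgr5med cells (3.76%, 5.79% and 9.55%; 1, and 0 with DESeq2) and 0 of 7 in Lgr5low cells (0.143%, 0.3% and 0.443%; 0, and 0 with DESeq2). The 4 in Lgr5high cells were Apc, Lef1, Sp5 and Tcf7l2. Over all genes, 3043 of 13322, 3402 of 13394 and 1796 of 13326 had an unadjusted p under 0.05 in these 3 gates. DESeq2 called 1288, 1619 and 306 of all genes. The interactions of Lgr5high with Lgr5med and with Lgr5low cells called 0 of 9 members and 0 of 15045 genes in edgeR's test (background 0.0% in both; 576 and 676 genes at an unadjusted p under 0.05, 0 and 0 with DESeq2; for members 1 and 0, and 0 and 0 with DESeq2). The 1 member was Sp5, for Lgr5high minus Lgr5med cells (log2 difference -1.025, unadjusted p = 0.0309 in edgeR's test). With the replicate block 1 gene was called for Lgr5high minus Lgr5low cells.

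Among the other feedback inhibitors, Nkd1, which binds Dishevelled (chromosome 8, 88521354 to 88594884), was low and highest in Lgr5high cells. PBS mice had 5.93, 1.86 and 2.42 CPM in Lgr5high, 1.64, 1.04 and 0.763 in Lgr5med, 0.593, 0.768 and 1.00 in Lgr5low and 0.365, 0.0 and 0.0 CPM in Lgr5neg cells. Replicate 1 stood apart in Lgr5high cells, and the Lgr5neg libraries held 5 counts in all. Lgr5high exceeded Lgr5neg cells by a fitted log2 difference of 4.61 (SE 0.787, adjusted p = 3.77e-05). Replicate 1 held all 5 Lgr5neg counts, and alternatives moved the value between 3.95 and 9.14, the highest without that library, so its size is poorly fixed. Lgr5high against Lgr5med cells did not pass (1.56, adjusted p = 0.0996), though it did with DESeq2 (0.0374) and without the filter on low counts (0.0184). Lgr5low exceeded Lgr5neg cells (2.50, SE 0.854, adjusted p = 0.0180), a call lost without Lgr5neg replicate 2 (0.0671) or 3 (0.0678) and in the 15-week-old mice (0.169), with values between 1.77 and 7.03, the highest again without replicate 1. In NRG1 mice Nkd1 was at 2.11, 2.15 and 1.39 CPM in Lgr5high cells and exceeded Lgr5neg cells by 3.37 (SE 0.753, adjusted p = 0.000776; 2.82 to 5.31 over the alternatives, the highest without Lgr5neg replicate 2). Lgr5low against Lgr5neg cells did not pass there (adjusted p = 0.0798), except without Lgr5neg replicate 2 (0.0114). Its NRG1 difference in Lgr5high cells was -0.82 (95% interval -1.69 to 0.05, adjusted p = 0.247).

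Apcdd1, a membrane protein that binds Wnt ligands and receptors (chromosome 18, 62922231 to 62961179), was likewise highest in Lgr5high cells, at 2.08, 1.13 and 2.10 CPM in PBS and 1.42, 1.19 and 2.04 CPM in NRG1 mice. In Lgr5neg cells PBS mice had 5, 7 and 0 counts and NRG1 mice had 0 in all 3 libraries. Against a floor of 3 counts over the 3 Lgr5neg libraries, pooled levels in NRG1 mice were at least 21.3-fold higher in Lgr5high and at least 6.2-fold higher in Lgr5low cells, with adjusted p of 2.22e-05 and 0.00122. In PBS mice Lgr5high exceeded Lgr5neg cells (log2 difference 2.44, SE 0.888, adjusted p = 0.0215). That call was lost without Lgr5high replicate 1 (0.0546) or 3 (0.0578), without Lgr5neg replicate 3 (0.0699) and in the 15-week-old mice (0.141). Lgr5high against Lgr5med cells did not pass in PBS mice (2.00, adjusted p = 0.144, and 0.0341 without the filter on low counts) or in NRG1 mice (1.89, adjusted p = 0.0873, and 0.0289 with DESeq2). NRG1 left no called difference in Lgr5high cells (-0.17, 95% interval -0.97 to 0.63). In Lgr5neg cells Apcdd1 was too low for a test of NRG1 against PBS. Against the same floor, pooled PBS libraries were at least 4.25-fold above NRG1 libraries there, although PBS replicate 3 also had 0 counts. Notum, the secreted enzyme that strips the lipid from Wnt ligands (chromosome 11, 120653788 to 120661175, minus strand), had 0 to 3 counts in every library and was not tested; its level was not detectable at this depth.

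Sp5 followed another course. In PBS mice it was at 8.20, 6.25 and 10.0 CPM in Lgr5high, 2.50, 1.99 and 2.48 in Lgr5med, 2.42, 2.26 and 1.81 in Lgr5low and 8.83, 3.18 and 3.57 CPM in Lgr5neg cells. The libraries of the outer gates thus lay above those of the middle ones, with replicate 1 far above the others in Lgr5neg cells. Lgr5high exceeded Lgr5med cells by a log2 difference of 1.81 (SE 0.335, adjusted p = 0.00188), although not in the 15-week-old mice alone (1.67, adjusted p = 0.0923). Lgr5low was below Lgr5neg cells by -1.34 (SE 0.345, adjusted p = 0.00266), and without Lgr5neg replicate 1 by -0.70 (adjusted p = 0.0643). Lgr5high and Lgr5neg cells did not differ past the threshold (0.57, 95% interval -0.11 to 1.25, adjusted p = 0.129), while without Lgr5neg replicate 1 they did (adjusted p = 0.00175).

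In NRG1 mice Sp5 was at 5.85, 5.53 and 5.16 CPM in Lgr5high, 3.36, 3.51 and 2.77 in Lgr5med, 1.04, 1.65 and 1.09 in Lgr5low and 4.79, 2.57 and 2.21 CPM in Lgr5neg cells. Lgr5low cells were lowest here, and the Lgr5med and Lgr5neg libraries overlapped. Lgr5med exceeded Lgr5low cells (log2 difference 1.29, SE 0.329, adjusted p = 0.0318), a call lost without Lgr5low replicate 1 (0.111) or 3 (0.145), without Lgr5med replicate 1 (0.106) or 2 (0.106) and in the 15-week-old mice (0.173). Lgr5low was below Lgr5neg cells by -1.36 (SE 0.338, adjusted p = 0.00247), a call kept in all alternatives run. For Lgr5high against Lgr5neg cells the adjusted p was 0.0543 (log2 difference 0.69), and it passed with the mouse as a replicate block (0.0311), with DESeq2 (0.0373), with all 24 libraries in 1 model (0.0470) and without Lgr5neg replicate 1 (0.00440). NRG1 against PBS gave -0.54 in Lgr5high (95% interval -0.98 to -0.10, adjusted p = 0.125), 0.49 in Lgr5med, -0.72 in Lgr5low and -0.70 in Lgr5neg cells, none of them called. NRG1 and PBS groups of Sp5 did not overlap in Lgr5high, Lgr5med or Lgr5low cells, and overlapped in Lgr5neg cells.

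Of the TCF/LEF factors, Tcf7 was lower and Tcf7l2 higher in Lgr5neg than in Lgr5high cells. Tcf7 encodes TCF1 (chromosome 11, 52252371 to 52283014, minus strand). In PBS mice it was at 24.5, 17.7 and 27.9 CPM in Lgr5high, 17.2, 11.9 and 13.1 in Lgr5med, 5.51, 6.19 and 5.78 in Lgr5low and 1.17, 1.86 and 1.59 CPM in Lgr5neg cells. No gate overlapped the next. The steps were 0.73 (SE 0.201, adjusted p = 0.0264), 1.28 (SE 0.211, adjusted p = 0.000976) and 1.84 (SE 0.261, adjusted p = 6.80e-06) on the log2 scale. The first was lost without Lgr5high replicate 1 (0.104) or 3 (0.172), without Lgr5med replicate 2 (0.163) or 3 (0.129), in the 15-week-old mice (0.486) and with all 24 libraries in 1 model (0.0518).

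In NRG1 mice Tcf7 was at 23.6, 18.5 and 16.2 CPM in Lgr5high, 16.5, 13.5 and 9.71 in Lgr5med, 7.49, 5.57 and 5.59 in Lgr5low and 0.638, 2.06 and 1.18 CPM in Lgr5neg cells. The step from Lgr5high to Lgr5med cells did not pass (log2 difference 0.53, adjusted p = 0.326). Lgr5med exceeded Lgr5low cells by 1.07 (SE 0.267, adjusted p = 0.0286), a call lost without Lgr5low replicate 2 (0.0897) or 3 (0.133), without Lgr5med replicate 1 (0.137) or 2 (0.0912) and in the 15-week-old mice (0.128). Lgr5low exceeded Lgr5neg cells by 2.16 (SE 0.329, adjusted p = 2.82e-05). Its NRG1 difference lay between -0.24 and 0.12 in the 4 gates, with adjusted p of 0.471 or more.

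Tcf7l2 encodes TCF4, the TCF factor best known from the gut (chromosome 19, 55741820 to 55933654, plus strand), and ran the other way. In PBS mice it was at 75.1, 85.6 and 59.7 CPM in Lgr5high, 83.9, 95.7 and 95.5 in Lgr5med, 84.6, 124 and 97.4 in Lgr5low and 116, 142 and 107 CPM in Lgr5neg cells. Neighbouring gates overlapped, and none of the single steps passed (Lgr5high against Lgr5med cells -0.32, adjusted p = 0.257; Lgr5med against Lgr5low cells -0.15, 0.662; Lgr5low against Lgr5neg cells -0.33, 0.0856, and 0.0293 with the mouse as a replicate block). The last was called too without Lgr5low replicate 2 (0.0203) and with DESeq2 size factors (0.0458). Lgr5high was below Lgr5neg cells by -0.81 (SE 0.162, adjusted p = 0.000209; lower in 3 of 3 mice). In NRG1 mice the same contrast was -0.41 (SE 0.177, adjusted p = 0.0493), a call that 11 of 13 alternatives ended and the replicate block kept (0.0110). Those 11 hold leaving out any 1 of Lgr5high replicates 1 (0.106), 2 (0.0674) and 3 (0.138) or Lgr5neg replicates 2 (0.135) and 3 (0.0937).

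Lef1, the third factor (chromosome 3, 131110471 to 131224356), was at 2.78, 1.55 and 1.55 CPM in Lgr5high, 0.637, 0.249 and 0.191 in Lgr5med, 0.720, 0.361 and 0.0478 in Lgr5low and 0.146, 1.16 and 0.555 CPM in Lgr5neg cells of PBS mice. Lgr5high exceeded Lgr5med cells by 2.42 (SE 0.728, adjusted p = 0.0416), a call lost on leaving out any of 5 libraries: Lgr5high replicate 1 (0.192), 2 (0.0566) or 3 (0.0830), or Lgr5med replicate 2 (0.176) or 3 (0.184). It was lost in the 15-week-old mice too (0.267). Lef1 and Tcf7 are also T-cell genes, and the T-cell markers of the Lgr5neg libraries of replicates 1, 2 and 3 summed to 134, 193 and 91.4 CPM in PBS and 138, 436 and 56.4 CPM in NRG1 mice. In NRG1 mice Lef1 had 1, 1 and 1 counts in Lgr5low and 1, 15 and 2 counts in Lgr5neg cells, so replicate 2 was highest for both Lef1 and the T-cell markers. The pooled Lgr5neg to Lgr5low ratio was 7.10 (95% exact counting interval 2.07 to 37.6), and the call of that contrast (adjusted p = 0.0345) was lost without Lgr5neg replicate 2 (0.549), without Lgr5low replicate 1 (0.0626), 2 (0.124) or 3 (0.0679), and in the 15-week-old mice (0.0511). Lgr5high against Lgr5neg cells did not pass for Lef1 in PBS mice (1.57, adjusted p = 0.0617) or NRG1 mice (0.87, 0.302), but did in each without Lgr5neg replicate 2 (0.0203 and 0.0170), and in PBS mice without the filter on low counts (0.0228). The part of T-cell RNA in these values was not tested.

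With NRG1, Lef1 in Lgr5high cells was at 1.21, 0.807 and 0.433 CPM against 2.78, 1.55 and 1.55 CPM with PBS. The groups did not overlap, but the log2 difference of -1.24 (SE 0.445, 95% interval -2.18 to -0.30) did not pass (adjusted p = 0.103, and 0.0537 with the replicate block). Tcf7l2 in the same cells was at 88.1, 93.4 and 84.5 CPM with NRG1, a log2 difference of 0.30 (95% interval 0.02 to 0.57, adjusted p = 0.180).

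As shares of the summed per-kilobase level of the 3 factors, Tcf7 took 50.7% ± 10.0 and Tcf7l2 48.1% ± 10.0 in Lgr5high cells of PBS mice (SD, n = 3). In Lgr5med cells the Tcf7 share was 33.7% ± 5.92, in Lgr5low cells 16.2% ± 1.76 and in Lgr5neg cells 4.04% ± 0.730. In NRG1 mice it was 41.8% ± 4.43, 35.3% ± 12.0, 16.9% ± 5.61 and 3.64% ± 1.66. Tcf7l2 took 57.7% ± 4.61 in Lgr5high cells of NRG1 mice, and Tcf7 exceeded it in replicates 1 and 3 of the Lgr5high PBS libraries and in no other library. Lef1 stayed at 1.74% or less in every library. These shares were not tested, and they rest on total exon length, not on the isoforms present.

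**Figure D3:**
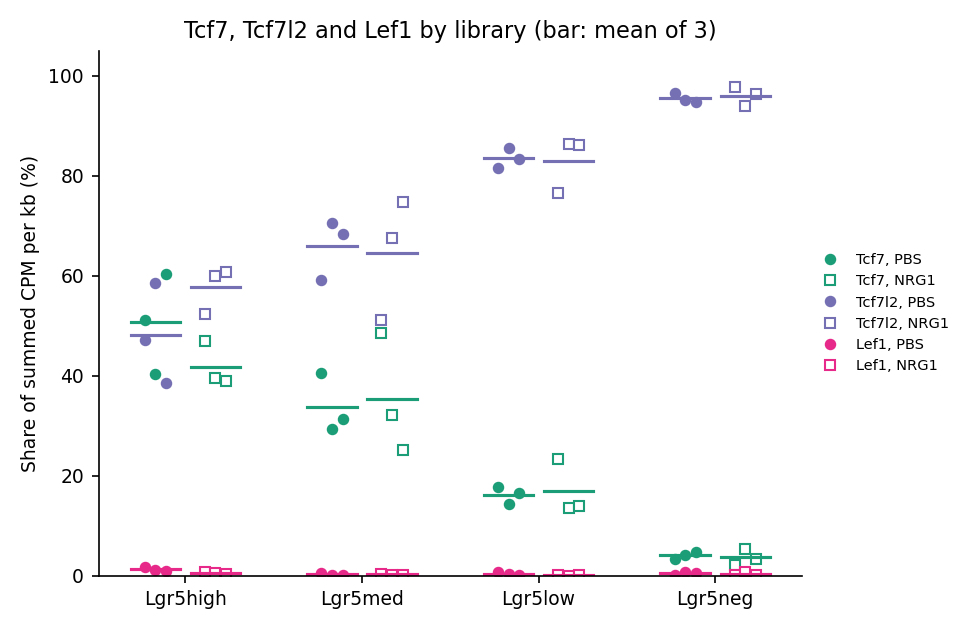
Share of Tcf7, Tcf7l2 and Lef1 in the summed CPM per kilobase of the 3 genes (vertical axis, percent) by sorted population and treatment; each point is 1 library and bars are means of 3. Tcf7 drops from 50.7% in Lgr5high to 4.04% in Lgr5neg cells of PBS mice as the share of Tcf7l2 grows.

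Ctnnb1, which encodes beta-catenin (chromosome 9, 120929216 to 120960507, plus strand), varied little. PBS mice had 338, 326 and 331 CPM in Lgr5high, 302, 286 and 307 in Lgr5med, 238, 288 and 296 in Lgr5low and 397, 351 and 352 CPM in Lgr5neg cells. Only the Lgr5neg libraries all lay above 338 CPM. Lgr5low was below Lgr5neg cells by -0.50 (SE 0.128, adjusted p = 0.00253), and the other 3 contrasts of PBS mice did not pass. In NRG1 mice Lgr5low and Lgr5high were below Lgr5neg cells by -0.41 (SE 0.120, adjusted p = 0.00709) and -0.37 (SE 0.119, adjusted p = 0.0119). Both calls were lost without the filter on low counts (0.0695 and 0.140) and in the 15-week-old mice (0.0635 and 0.102), and the second without Lgr5high replicate 2 (0.0609). Its NRG1 difference was between -0.11 and 0.09 in the 4 gates, with intervals that all lay within -0.35 and 0.39. Ulk4, on the other strand, overlaps Ctnnb1 exons with 339 counts against 147050.

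Apc, the tumour suppressor that scaffolds the destruction complex (chromosome 18, 34220924 to 34322552, plus strand), was at 113, 125 and 141 CPM in Lgr5high, 110, 117 and 129 in Lgr5med, 131, 110 and 149 in Lgr5low and 93.1, 137 and 132 CPM in Lgr5neg cells of PBS mice. These overlapped, and none of the 4 contrasts passed (log2 differences between -0.13 and 0.09). In NRG1 mice it was at 162, 159 and 149 CPM in Lgr5high, 140, 142 and 133 in Lgr5med, 153, 142 and 147 in Lgr5low and 91.1, 125 and 108 CPM in Lgr5neg cells, with the Lgr5neg libraries below all others. Lgr5high exceeded Lgr5neg cells by 0.44 (SE 0.127, adjusted p = 0.00595), kept in all alternatives run. Lgr5low exceeded them by 0.39 (SE 0.127, adjusted p = 0.0142), lost without Lgr5neg replicate 1 (0.0543) and in the 15-week-old mice (0.0804).

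NRG1 and PBS groups of Apc did not overlap in Lgr5high or Lgr5med cells. The log2 differences were 0.33 (95% interval 0.09 to 0.58, adjusted p = 0.0941) and 0.24 (0.000490 to 0.49, adjusted p = 0.196), and neither passed. Without Lgr5high PBS replicate 3 the first passed (adjusted p = 0.0313). In Lgr5neg cells the difference was -0.17 (adjusted p = 0.812), and the interaction of Lgr5high with Lgr5neg cells, 0.49, did not pass (adjusted p = 0.474).

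The rest of the Wnt pathway was read from a list of 136 genes in 8 roles, of which 135 were in the table. In Lgr5neg cells, where Axin2 was lower with NRG1, 0 of 79 tested pathway genes were called by edgeR (11 at an unadjusted p under 0.05, 0 with DESeq2, 7 with the replicate block), with a median log2 difference of -0.10 against 0.01 over all genes tested. Of all 11908 genes tested there, edgeR called 39 (0.328%), and 1257 had an unadjusted p under 0.05. DESeq2 called 197 and the replicate block 839. Against such shares, a count of 0 of 79 does not stand below the background. Fzd6, a Wnt receptor picked here for its size, was at -1.49 there (adjusted p = 0.267). In Lgr5high cells 2 of 92 rose and 7 fell (median 0.01, all genes 0.01; 3.18% of all genes rose and 4.15% fell). In Lgr5med cells 6 of 91 rose and 7 fell (0.05, 0.01; 3.76% and 5.79%), and in Lgr5low cells 1 of 92 rose and none fell (0.01, -0.000717; 0.143% and 0.3%). DESeq2 called 14, 18 and 3 in these gates in either direction, and the replicate block 13, 24 and 7. Over all genes DESeq2 called 1288, 1619 and 306, and the replicate block 1229, 2333 and 573. None of 98 tested pathway genes was called in any of the 5 interactions (7 to 12 at an unadjusted p under 0.05, 0 with DESeq2). Of all 15045 genes, 0 to 8 were called there, and 576 to 1303 had an unadjusted p under 0.05.

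**Figure D4:**
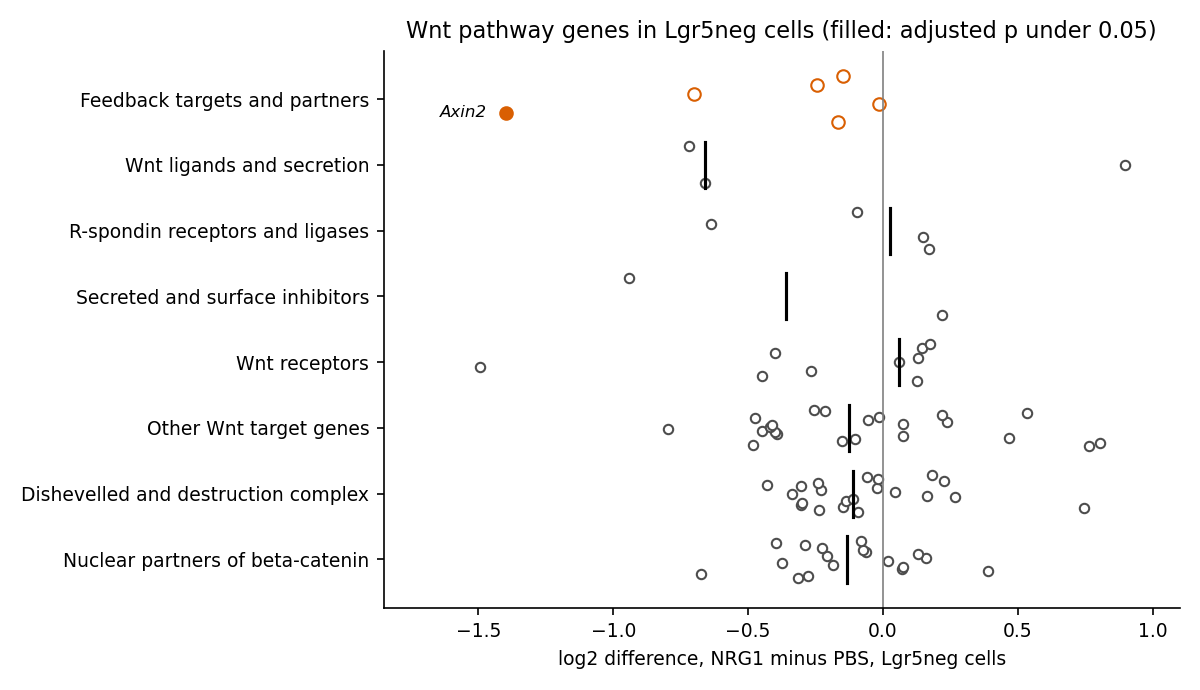
Log2 difference of NRG1 minus PBS in Lgr5neg cells (horizontal axis) for tested Wnt pathway genes by role, with the median of each role as a bar and the feedback targets and partners in orange on top. Axin2 is the 1 filled point, at -1.40, and none of the 79 other pathway genes passed (0.328% of all tested genes did).

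In Lgr5med cells Ets2, a transcription factor listed as a Wnt target, rose from 91.2 ± 3.52 to 140 ± 6.26 CPM (SD, n = 3; log2 difference 0.64, adjusted p = 0.00387). Fzd5, a Wnt receptor, fell from 247 ± 19.8 to 154 ± 7.91 CPM (-0.66, adjusted p = 0.00482), and both kept their call in all 13 alternatives. Ccnd1, the cyclin D1 gene, fell from 98.8 ± 7.71 to 61.7 ± 9.71 CPM (-0.66, adjusted p = 0.00800), lost with all 24 libraries in 1 model (0.0865). Rgmb (0.82, adjusted p = 0.0420), Cd44 (0.71, 0.0496) and Ctnnbip1, an inhibitor of beta-catenin (-0.65, 0.0361), were called there too, with 5, 7 and 6 of 13 alternatives ending the call. In these cells 4 of 10 enterocyte markers were called lower with NRG1 (median log2 difference -0.62; 5.79% of all genes lower) and 1 of 8 stem cell markers higher (median 0.66; 3.76% of all genes higher). Their part in these differences was not tested.

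In Lgr5high cells Sfrp5, a secreted Wnt inhibitor, fell from 19.1 ± 1.99 to 11.2 ± 3.01 CPM (log2 difference -0.75, adjusted p = 0.0175). Its call was lost in 3 of 13 alternatives, namely without NRG1 replicate 1 or 2 and with all 24 libraries in 1 model, and the highest adjusted p among them was 0.109. Prox1 (0.86, adjusted p = 0.0487), Ep300 (0.43, 0.0441), Id2 (-0.80, 0.0292) and Fzd6 (-0.79, 0.0417) were called, each with 6 of 13 alternatives ending the call. Of 10 Paneth markers, 3 were called lower in Lgr5high cells with NRG1 (median log2 difference -0.67; 4.15% of all genes lower), and their part was not tested. Cd44, a surface glycoprotein and Wnt target, was the 1 pathway gene that edgeR called in Lgr5low cells, from 36.3 ± 2.68 to 67.3 ± 15.3 CPM (0.92, adjusted p = 0.0369), with 6 of 13 ending it. Stem cell markers there had a median log2 difference of 0.70, with 1 of 8 called higher (0.143% of all genes higher), and their part was not tested.

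Along the gates of PBS mice, Lgr5high against Lgr5med cells gave 16 higher and 3 lower of 95 tested pathway genes (median log2 difference 0.14, all genes 0.00258; 2.44% of all genes higher and 6.72% lower), and Lgr5med against Lgr5low cells 13 higher and none lower (0.12, all genes -0.00184; 2.0% and 5.59%). The list holds Lgr5, the gene of the sorting reporter, which was higher by 2.57 in the first contrast (adjusted p = 0.0107, edgeR). In NRG1 mice Lgr5 was higher by 1.69 and 2.01 in the same 2 contrasts. The gates were sorted on that reporter, so the part of Lgr5 in these counts was set by the sort. Of 27 other Wnt target genes tested, 10 were higher in the first contrast and 1 lower. Tnfrsf19, a receptor found on stem cells, was higher by 2.47 (SE 0.401, adjusted p = 0.00220) and Ascl2, a stem cell transcription factor, by 1.35 (SE 0.210, adjusted p = 0.000534). Both calls were lost in the 15-week-old mice (0.116 and 0.0813) and in no other alternative. The lower 3 were Ctnnbip1 (-0.67), Ppard (-0.60) and Fzd5 (-0.50), with 5, 3 and 8 of 13 alternatives ending the call. In NRG1 mice the counts were 7 higher and 1 lower of 94 (0.594% and 2.52% of all genes), and 14 higher and none lower (0.923% and 3.8%). DESeq2 called 12 and the replicate block 18 in the first of these, in either direction (805 and 913 of all genes). Against Lgr5neg cells of PBS mice, 41 were higher and 18 lower in Lgr5low cells (30.6% and 25.3% of all genes). In Lgr5high cells 47 were higher and 22 lower (35.4% and 32.0%). NRG1 mice had 46 higher and 12 lower in Lgr5low cells (30.4% and 26.6%), and 53 and 17 in Lgr5high cells (33.5% and 32.0%).

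The 5 genes whose log2 CPM was most like that of Axin2 over the 24 libraries, among 8847 compared, were Rnf43 (Pearson r 0.980), Sema7a (0.964), Efna4 (0.961), Bcl9l (0.961) and Strbp (0.959). Without the Lgr5neg libraries the values over 18 libraries were 0.972, 0.943, 0.974, 0.929 and 0.927. The libraries share gates, mice and depth, so these values describe likeness and carry no test. Rnf43 encodes a ligase that removes Wnt receptors from the cell surface, and Bcl9l a partner of beta-catenin. In Lgr5neg cells Rnf43 was at 17.7 ± 1.59 CPM in PBS and 11.4 ± 1.37 CPM in NRG1 mice (SD, n = 3; log2 difference -0.64, adjusted p = 0.212). Bcl9l was at 17.7 ± 0.649 and 11.1 ± 2.45 CPM (-0.67, adjusted p = 0.219), and Sema7a at 8.12 ± 3.48 and 4.56 ± 1.86 CPM (-0.83, adjusted p = 0.418). Strbp had a difference of -0.36 (adjusted p = 0.429) and Efna4 of -0.28 (0.848). The Lgr5neg libraries were among those used to pick the 5 genes. With NRG1, Sema7a was higher by 0.51, 0.90 and 0.92 in Lgr5high, Lgr5med and Lgr5low cells (adjusted p = 0.0593, 0.0549 and 0.0676, edgeR). The remaining genes lay between -0.24 and 0.39 there, with adjusted p of 0.465 or more. None of the 5 was called in any of the 4 NRG1 comparisons. Of all tested genes, 7.33% (Lgr5high), 9.55% (Lgr5med), 0.443% (Lgr5low) and 0.328% (Lgr5neg) were called.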

How the data were processed

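STAR, featureCounts and the build GRCm38 are named per the submitters' processing notes, while tool versions, annotation release and strand setting are not given in the sources used here. Raw counts per gene symbol, not normalised, were deposited by the authors in 24 columns that each belong to 1 sample. Groups come from the labels, and the mouse from the description label. Tests used edgeR 4.0.16 in R 4.3.3 (quasi-likelihood, robust, TMM, filterByExpr with a minimum count of 10 and total of 15), with Benjamini-Hochberg adjustment over all genes tested and calls at 0.05: NRG1 against PBS on 6 libraries per gate, gates on the 12 libraries of a treatment, interactions on all 24. The script was tested on simulated data. CPM levels use TMM over 24 libraries, so they differ slightly from the scaling inside a 6-library fit. Exon lengths and coordinates are GENCODE vM21, and promoters RefSeq on GRCm38.p6. A log2 prior count of 2 was used for likeness to Axin2.

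The 10 genes, the pathway and marker lists and the naming rule (all 10 genes, up to 3 called pathway genes per direction and comparison with a mean log2 CPM of at least 2, and the 5 genes most like Axin2; fewer are printed) were chosen with earlier results of these data known. Same-numbered NRG1 and PBS libraries deviated together (correlations 0.109 to 0.395 in 12 of 12 pairs), as did gates of 1 mouse (0.161 to 0.583). The main tests nevertheless had no block and took the libraries as independent. The replicate number, or the shared mouse of the labels, entered a test only in the replicate block alternative. Alternatives were DESeq2 1.42.0, its size factors within edgeR, no filter, mitochondrial ribosomal RNA left out, 15-week-old mice only, the replicate block, all 24 libraries in 1 model, and each library left out. No library was left out of the results given. A fold against a group at 0 uses a floor of 3 counts.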

Additional observations from a re-analysis of the deposited data

Results flagged for a closer look

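The NRG1 response of Axin2 differed between Lgr5neg cells and the other gates, by the test of the difference itself (edgeR interaction over 24 libraries). It was higher by 1.41 on the log2 scale in Lgr5high than in Lgr5neg cells (1.405, adjusted p = 0.0221), by 1.65 in Lgr5med than in Lgr5neg cells (1.646, adjusted p = 0.00165) and by 1.73 in Lgr5low than in Lgr5neg cells (1.727, adjusted p = 0.000771). The latter 2 comparisons were chosen after seeing the data, and all 3 rest on the same 6 Lgr5neg libraries. The call for Lgr5high against Lgr5neg cells was lost in the 15-week-old mice (adjusted p = 0.0990). It was also lost without Lgr5high NRG1 replicate 1 (0.0669), Lgr5high PBS replicate 2 (0.0629), Lgr5neg NRG1 replicate 2 (0.0516) or Lgr5neg PBS replicate 1 (0.0559). The response of Lgr5high minus that of Lgr5med (-0.24) or Lgr5low cells (-0.32) was not called. Goblet markers, at 4737 to 6619 CPM in PBS and 1206 to 3722 CPM in NRG1 libraries of Lgr5neg cells, were lower there too, with 0 of 8 called. Median log2 differences were -0.36 for enterocyte, -1.05 for enteroendocrine and -0.43 for Paneth markers. Those of stem cell and T-cell markers were 0.19 and 0.55, and no gene of these lists was called (0.328% of all genes tested there were). The part of these markers was not tested.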

How the results depend on the processing

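Of 37 called results of the 10 genes, 20 kept their call in all alternatives run, and over 496 alternatives 428 kept it, 68 lost it and 0 turned direction. Of 109 results that were not called, 18 of 1620 alternatives called one, and 101 turned the sign of an uncalled difference. The 15-week-old mice alone, with 2 mice a group, ended 16 calls. They left 0 members called for NRG1 in Lgr5neg cells, for Lgr5high against Lgr5med cells in PBS mice and in NRG1 mice, and for the interaction of Lgr5high with Lgr5neg cells, 1 for Lgr5med against Lgr5low and 4 for Lgr5low against Lgr5neg cells in NRG1 mice. DESeq2 called 2 members for Lgr5high against Lgr5med cells in NRG1 mice. Leaving out 1 library gave 0 to 1 members for NRG1 in Lgr5high cells and in Lgr5neg cells, 2 to 4 and 0 to 1 for Lgr5high against Lgr5med cells in PBS and NRG1 mice, 1 to 3 for Lgr5med against Lgr5low cells in NRG1 mice and 0 to 1 for the interaction of Lgr5high with Lgr5neg cells. The cause was not tested. The replicate block added the calls of Tcf7l2 (Lgr5low against Lgr5neg cells, PBS mice, 0.0293) and Sp5 (Lgr5high against Lgr5neg cells, NRG1 mice, 0.0311) and changed no other call of a member.

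Counts of all genes called moved by more than 1.5 times as follows. For NRG1 in Lgr5high cells, 976 became 480 in 1 model of 24 libraries. In Lgr5med cells, 1279 became 425 (15-week-old mice) and 2333 (replicate block). In Lgr5low cells, 59 became 11, 129, 306, 497 and 573, and in Lgr5neg cells 39 became 0, 306, 197, 272 and 839 (15-week-old mice, 24 libraries, DESeq2, no filter, replicate block). In PBS mice the 15-week-old mice gave 99 for 1302 (Lgr5high against Lgr5med) and 307 for 1078 (Lgr5med against Lgr5low). In NRG1 mice 85 higher plus 360 lower calls became 68, 805, 1059 and 913 in all, and 675 became 91, 1156, 1268 and 1266 for the same pairs (15-week-old mice, DESeq2, no filter, replicate block). For the interaction of Lgr5high with Lgr5neg cells 8 became 2, 47, 150 and 65, and for Lgr5med with Lgr5neg cells 7 became 3, 31, 134 and 13 (same settings). For Lgr5low with Lgr5neg cells 3 became 8 with DESeq2 and 94 with no filter, and for Lgr5high with Lgr5med and with Lgr5low cells 0 became 17 and 35 with no filter and, for the latter, 1 with the replicate block. Leaving out 1 library gave, for NRG1, 491 to 1186 in Lgr5high, 422 to 1118 in Lgr5med, 1 to 72 in Lgr5low and 0 to 90 in Lgr5neg cells. For Lgr5high against Lgr5med cells it gave 634 to 1425 (PBS mice) and 126 to 487 (NRG1 mice), for Lgr5med against Lgr5low cells 464 to 1004 and 204 to 738, and for the interactions of Lgr5high, Lgr5med and Lgr5low with Lgr5neg cells 1 to 18, 2 to 8 and 3 to 8. Low counts limit Notum, Apcdd1, Lef1 and Nkd1, and 3 mice a group limit all comparisons.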
